A study of Mus musculus with 2 samples.

Results

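Cycling endothelial cells (ECs) of the neonatal mouse lung were taken from 2 scRNA-seq libraries, 1 of room air and 1 of hyperoxia. A cell was a member when it had at least 3 UMIs of the EC genes *Cdh5*, *Pecam1* and *Cldn5* together, no UMI of the leukocyte gene *Ptprc* or the epithelial gene *Epcam*, and at least 3 UMIs of the proliferation genes *Mki67*, *Top2a* and *Rrm2* together. A UMI is 1 counted RNA molecule. The rule found 130 cycling ECs, 35 in room air and 95 in hyperoxia, among 3691 ECs of the same gate and 17457 barcodes in all. Of these barcodes, 15520 entered the rule, after those with under 500 genes or over 20% mitochondrial UMIs had been removed. The members were therefore chosen on measured values, and the levels of the 8 genes of the rule describe the choice only.

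The mice were wild-type C57BL/6 pups that lived in room air with 21% oxygen or in hyperoxia with 80% oxygen from birth to postnatal day 14, when lungs were taken (age label 2 weeks). Whole lung was digested, red blood cells were lysed and no cell type was sorted. Lungs of 8 mice were pooled into 1 library per group, so that no group had a replicate and no test between the groups was possible. Neither group carried a transgene or an engineered allele. Intervals after values are exact 95% intervals (Clopper-Pearson for shares, Poisson for levels, conditional for ratios). They cover counting error only, and not the spread between mice, libraries or cells.

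A dividing cell first licenses and copies its DNA in S phase, then builds a spindle in G2 and mitosis and separates the chromosomes. Cyclins and cyclin-dependent kinases drive these steps, and inhibitors such as p21, encoded by *Cdkn1a*, hold them back. The alveolar capillary bed of the mouse lung holds general capillary (gCap) cells, which can divide and give rise to other capillary cells, and aerocytes (aCap), large cells specialised for gas exchange.

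There were 39593888 UMIs over 4234 barcodes in room air, and 111934936 UMIs over 13223 barcodes in hyperoxia. The members had a median of 12480 UMIs and 3978 genes in room air and of 15383 UMIs and 4435 genes in hyperoxia. Non-cycling ECs, which are cells of the same gate without a UMI of the 3 proliferation genes, had medians of 7225.5 and 8228 UMIs. A simulated-doublet ranking marked 2 (5.71%) of the members in room air and 32 (33.7%) in hyperoxia, against 3.59% and 12.3% of the non-cycling ECs. The ranking marks a set share that grows with library size, here 143 (3.38%) of all barcodes in room air and 1399 (10.6%) in hyperoxia. Part of the difference between the libraries is therefore fixed by the method. At least 3 UMIs of a stromal marker list were found in 9 (25.7%) of the members in room air and 24 (25.3%) in hyperoxia. The libraries shared 17 barcodes, and 0 of them belonged to members of both.

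The members had the transcripts that their name states. Of 12 pan-endothelial genes that the rule did not use, 11 had a mean of at least 100 CPM (counts scaled to a fixed total of UMIs per group) in them, among them the adrenomedullin receptor genes *Calcrl* and *Ramp2*. The summed level of these 12 genes was 7188 CPM in room air against 6244 CPM in hyperoxia, and non-cycling ECs had 9064 and 8552 CPM. The lymphocyte list summed to 6.34 and 14.6 CPM, with *Cd3e* and *Ms4a1* at 0 in both libraries, and the mesothelial list had 0 UMIs. The myeloid list summed to 106 and 93.8 CPM. Stromal transcripts were higher, with list sums of 892 CPM in room air against 2212 CPM in hyperoxia.

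*Top2a* (chr11:98992943-99024189, minus strand), the topoisomerase that untangles replicated DNA, was detected in 35 of 35 members in room air and 90 of 95 in hyperoxia. *Mki67* (chr7:135689784-135716361, minus strand), whose protein coats mitotic chromosomes, was detected in 32 and 83 members. *Rrm2* (chr12:24708241-24714146, plus strand), a subunit of the enzyme that makes deoxynucleotides, was detected in 24 and 61 members. Positions are those of GENCODE M21 on GRCm38. All 3 genes were seen in 22 members of room air and 58 of hyperoxia. The median member held 35 UMIs of the 3 genes in room air and 16 in hyperoxia, with maxima of 124 and 163. At the limit of the rule, 3 members in room air and 11 in hyperoxia had exactly 3 UMIs, and 6 and 31 ECs had exactly 2 and were left out. A limit of 10 UMIs would have kept 26 and 60 members. A *Ptprc* UMI kept 22 and 52 otherwise fitting cells out, of which 19 and 44 had at least 3 UMIs of lymphocyte or myeloid genes.

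The question of whether hyperoxia changed the number of dividing ECs was read first from their share. Cycling ECs made up 3.54% (2.48 to 4.89) of the ECs in room air against 3.51% (2.85 to 4.28) in hyperoxia. The difference, hyperoxia minus room air, was -0.03 percentage points, and its interval from -1.53 to 1.28 still allows a shift of about 1 percentage point in either direction. ECs with at least 1 UMI of the 3 genes were 9.72% (7.94 to 11.7) and 10.9% (9.73 to 12.1). Without the marked doublets the share was 3.49% in room air against 2.69% in hyperoxia. The ranking marked more of the larger library by its setting (3.38% and 10.6% of all barcodes). The larger change in hyperoxia was therefore in part fixed in advance.

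Depth also entered the share, because a deeper cell reaches 3 UMIs more easily. When each cell was thinned to 4000 UMIs, with 244 ECs of room air and 630 of hyperoxia too shallow to enter, the shares were 3.63% (2.40 to 5.24) and 3.09% (2.39 to 3.93). At 2000 UMIs, where 109 and 328 ECs did not enter, they were 3.30% (2.22 to 4.70) and 1.89% (1.39 to 2.53), a difference of -1.40 percentage points (-2.90 to -0.15). ECs with at least 1 UMI of the 3 genes at that depth were 4.78% (3.47 to 6.40) and 5.31% (4.44 to 6.28). At equal depth the order of the libraries therefore differed with the number of UMIs required.

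**Figure D1:**
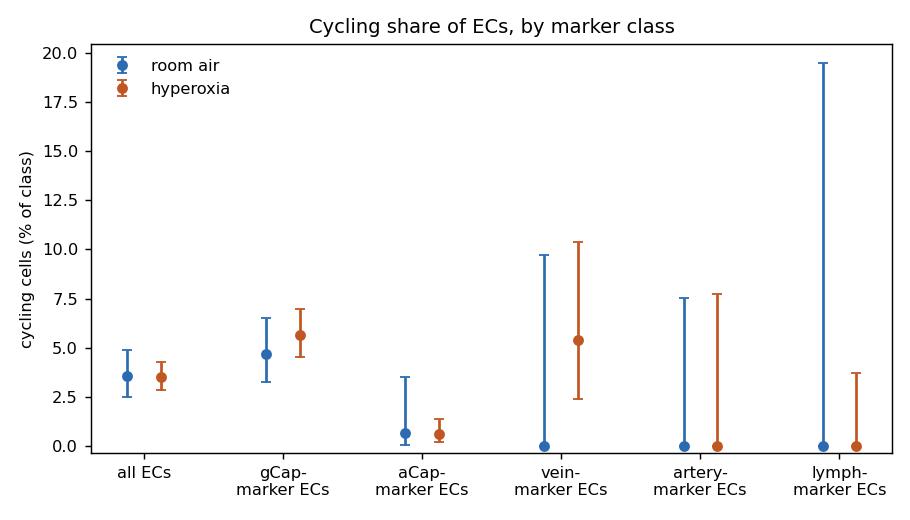
Share of cells that met the cycling rule (percent, vertical axis) among all ECs of the gate and among ECs of each marker class, for room air and hyperoxia (1 library each). Points are shares and bars are exact 95% intervals; all ECs sit at 3.54% and 3.51%, gCap-marker ECs at 4.66% and 5.65%, and the arterial and lymphatic classes at 0.

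Cycling cells were mostly gCap-marker cells in both libraries. A cell was given the class with the most UMIs of 6 markers, if it had at least 3, such as *Gpihbp1*, *Aplnr* and *Kit* for gCap or *Car4*, *Ednrb* and *Apln* for aCap. Of the members, 33 (94.3%) in room air and 81 (85.3%) in hyperoxia were gCap-marker cells, while this class held 70.1% and 50.6% of the non-cycling ECs. The aCap-marker class held 17.0% of the non-cycling ECs in room air and 33.9% in hyperoxia but only 1 and 5 members. Within gCap-marker cells the cycling share was 4.66% (3.23 to 6.48) in room air against 5.65% (4.51 to 6.98) in hyperoxia, a difference of 0.99 percentage points (-1.16 to 2.94). Within aCap-marker cells it was 0.641% (0.0162 to 3.52) and 0.588% (0.191 to 1.37). The plot of cycling shares by class shows this gap between the capillary classes in both libraries.

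Vein-marker cells, defined by genes such as *Vwf*, *Slc6a2* and *Prss23*, gave no member in room air and 8 in hyperoxia. These were 0 of 36 vein-marker ECs, which allows a share of up to 9.74%, and 8 of 148, or 5.41% (2.36 to 10.4). No difference between these shares was detectable at this number of cells. Artery-marker cells gave 0 of 47 and 0 of 46, and lymph-marker cells 0 of 17 and 0 of 98. With the first 3 markers of each class only, the cycling share of gCap-marker cells was 4.74% and 5.05%, and 85.7% and 85.3% of the members were in that class.

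The members of the 2 libraries differed in where they stood in the cell cycle. A pair of lists in common use were summed, 42 genes of S phase without *Rrm2* and 52 genes of G2 and mitosis without *Mki67* and *Top2a*. The G2/M list summed to 19309.9 CPM in room air against 10310.2 CPM in hyperoxia, a ratio of 0.534 (0.520 to 0.548). The S list summed to 4151 CPM and 4664 CPM, a ratio of 1.12 (1.07 to 1.18). S list UMIs were thus 17.7% (17.0 to 18.4) of all UMIs of both lists in room air and 31.1% (30.5 to 31.8) in hyperoxia. In non-cycling ECs, where both lists were low, this share was 35.7% and 34.8%.

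Single members spread widely within each library. The S share of a single member ranged from 1.05% to 76.6% in room air, with a median of 22.9%, and from 1.11% to 73.6% in hyperoxia, with a median of 43.4%. More S than G2/M UMIs were found in 6 (17.1%) of the members in room air and 39 (41.1%) in hyperoxia, a difference of 23.9 percentage points (4.61 to 38.9). An S share of 60% or more was seen in 2 members of room air and 23 of hyperoxia, and a share under 20% in 15 and 29. Other settings were read for the S share of the summed UMIs, 17.7% and 31.1% over all members, and not for these shares of members. It was also higher in hyperoxia without the marked doublets (17.5% and 39.8%) and with a limit of 10 UMIs of the proliferation genes (15.8% and 26.7%). With members chosen by *Cdk1*, *Ccna2* and *Birc5* instead it was 16.1% and 27.6%. Since the rule weighs *Top2a* and *Mki67*, which peak late in the cycle, over *Rrm2*, the S share of all dividing ECs cannot be read from these cells.

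**Figure D2:**
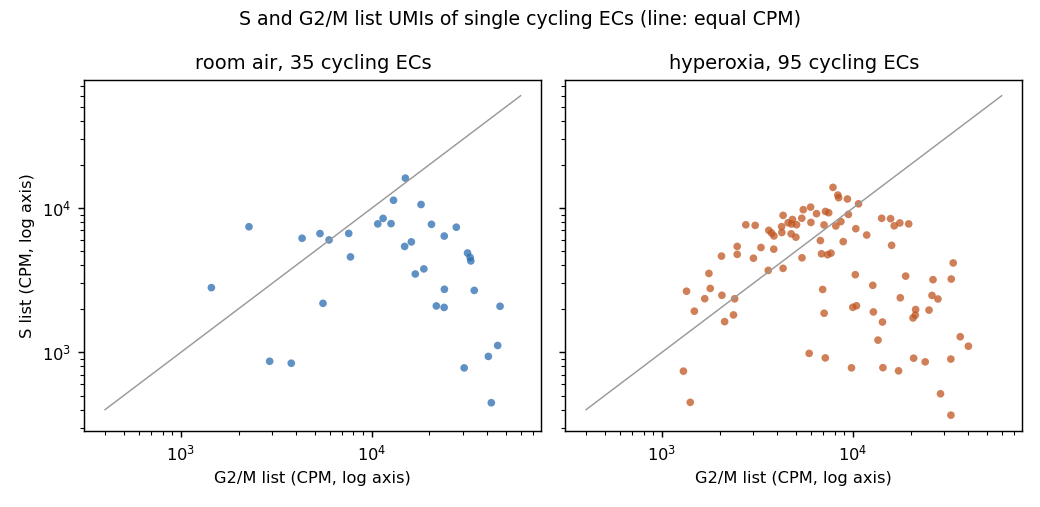
Each point is 1 cycling EC, with the CPM of the G2/M list on the horizontal and of the S list on the vertical axis (both log), in room air (35 cells) and hyperoxia (95 cells); the line marks equal CPM. Above the line lie 6 of the 35 members in room air and 39 of the 95 in hyperoxia.

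Genes of the spindle and of DNA replication are often told apart by their promoters, and 4 promoters are shown. They were chosen by the motifs described below, among genes with a single promoter. The spindle windows had to hold a CHR element and a CCAAT box, and the licensing windows an E2F site. Of these genes, those with the highest mean CPM in members were taken. *Cenpf* (kinetochore protein) and *Cenpa* (centromeric histone) stand for the spindle, *Mcm3* and *Mcm6* (subunits of the replicative helicase) for licensing. Each window runs from 250 bases before to 50 bases after the start site in RefSeq on GRCm38.p6, read 5′ to 3′ on the strand of the gene. Capitals mark matches on either strand to 3 motifs. The CHR element was searched as TTTGAA and in its second form as TTCGAA. The box named after its letters was searched as CCAAT. The E2F site was searched in its first form as TTTGGCGC, in another form as TTTCGCGC and in a further form as TTCCCGCC, and its matches may overlap each other.
Cenpf, chr1:189688037-189688336, minus strand: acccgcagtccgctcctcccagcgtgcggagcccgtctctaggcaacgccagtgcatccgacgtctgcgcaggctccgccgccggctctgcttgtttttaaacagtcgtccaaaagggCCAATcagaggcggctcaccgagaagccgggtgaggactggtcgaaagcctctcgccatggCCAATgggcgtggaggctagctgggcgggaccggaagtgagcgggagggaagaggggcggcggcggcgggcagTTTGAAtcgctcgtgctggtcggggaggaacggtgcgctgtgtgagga
Cenpa, chr5:30666636-30666935, plus strand: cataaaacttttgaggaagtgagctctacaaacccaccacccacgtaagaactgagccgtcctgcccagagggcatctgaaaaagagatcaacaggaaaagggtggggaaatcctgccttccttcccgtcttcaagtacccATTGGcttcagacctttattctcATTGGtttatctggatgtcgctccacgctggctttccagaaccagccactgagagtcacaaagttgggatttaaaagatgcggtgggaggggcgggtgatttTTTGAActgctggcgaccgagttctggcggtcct
Mcm3, chr1:20820263-20820562, minus strand: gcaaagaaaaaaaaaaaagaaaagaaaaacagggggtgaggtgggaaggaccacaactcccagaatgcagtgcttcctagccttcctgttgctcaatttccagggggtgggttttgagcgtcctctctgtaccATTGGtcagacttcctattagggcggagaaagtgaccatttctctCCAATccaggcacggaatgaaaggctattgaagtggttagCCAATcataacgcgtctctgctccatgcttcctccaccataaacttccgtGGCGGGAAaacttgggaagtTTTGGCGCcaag
Mcm6, chr1:128359656-128359955, minus strand: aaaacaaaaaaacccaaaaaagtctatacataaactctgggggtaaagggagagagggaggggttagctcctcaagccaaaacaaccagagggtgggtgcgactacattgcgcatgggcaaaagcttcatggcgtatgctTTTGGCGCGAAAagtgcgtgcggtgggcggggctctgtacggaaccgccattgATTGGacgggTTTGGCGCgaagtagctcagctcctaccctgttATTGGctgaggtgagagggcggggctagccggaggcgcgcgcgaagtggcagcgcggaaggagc

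The *Cenpf* window had a CHR element from 2 bases after the start site and CCAAT boxes at 132 and 71 bases before it. The *Cenpa* window had a CHR element from 16 bases after the start site and reversed CCAAT boxes at 109 and 86 bases before it. Both licensing windows held E2F sites, at 18 and 38 bases after the start site in *Mcm3* and at 110, 106 and 47 bases before it in *Mcm6*. Neither held a CHR element. CCAAT boxes on either strand lay at 117, 72 and 32 bases before the start site in *Mcm3* and at 57 and 14 in *Mcm6*. The E2F sites here, and the CHR elements and CCAAT boxes of the spindle windows, were required by the choice. Of 14 promoters matched to 13 of the 16 spindle genes, 11 (78.6%) held a CHR element, 10 (71.4%) a CHR element with a CCAAT box and 0 an E2F site. Of 10 promoters matched to 9 of the 12 licensing genes, 3 (30%) held a CHR element and 5 (50%) an E2F site. A CCAAT box was held by 11 (78.6%) of the spindle promoters, 8 (80%) of the licensing promoters and 37.4% of all promoters of the table. Among all 32851 promoters of the table, 19.2% held a CHR element, 7.52% a CHR element with a CCAAT box and 2.96% an E2F site. Among 1979 promoters of the genes with a mean of at least 100 CPM in members, these shares were 14.3%, 6.62% and 7.07%. A match to these letters is a description of the sequence and shows neither a bound site nor a cause.

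The levels of single genes were compared over 1991 genes with a mean of at least 100 CPM in the members. Of these, 89 (4.47%) were at least 2-fold higher and 94 (4.72%) at least 2-fold lower in hyperoxia, with a median log2 ratio of 0.00 over all genes. In non-cycling ECs, 31 (1.56%) and 46 (2.31%) of 1988 of the same genes passed the same limits. The members numbered far fewer cells than the non-cycling ECs, so that their ratios also varied more by counting error. Of the 89 genes higher in members, 18 were among the 31 higher in non-cycling ECs (20.2% of the first list and 58.1% of the second). Of the 94 lower genes, 32 were among the 46 (34.0% and 69.6%).

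Genes of the spindle and kinetochore were lower in the cycling ECs of hyperoxia. Of 16 listed genes 12 reached 100 CPM, 10 of these were at least 2-fold lower and 0 higher, and the median log2 ratio was -1.18 (all genes 0.00, 4.72% lower). *Cenpf* had 1059 CPM in room air against 449 CPM in hyperoxia, a ratio of 0.424 (0.377 to 0.477). *Prc1*, which bundles the midzone of the spindle, had 754 and 341 CPM, and *Kif11*, the motor that separates the spindle poles, 334 and 132 CPM. The centromeric histone gene *Cenpa* had 476 and 220 CPM. *Tpx2*, which nucleates spindle microtubules, had 423 and 237 CPM, a ratio of 0.560 (0.470 to 0.670) that did not reach 2-fold. The rule selects on *Mki67* and *Top2a*, which are known to rise with these genes, and among members with at least 10 UMIs of the proliferation genes only 2 of 12 spindle genes were 2-fold lower (median -0.81).

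Other genes of mitosis had ratios below 1 wherever they reached 100 CPM, and few passed 2-fold. Of 6 mitotic cyclins and kinases measured at 100 CPM, 1 (16.7%, against 4.72% of all genes) was at least 2-fold lower and 0 higher, with a median log2 ratio of -0.80. *Ccnb2* (cyclin B2) had 292 and 130 CPM, a ratio of 0.447 (0.358 to 0.560), and *Ccna2* (cyclin A2) had 304 and 155 CPM. *Cdk1*, the kinase that starts mitosis, had 423 CPM in room air against 262 CPM in hyperoxia, a ratio of 0.620 (0.522 to 0.739). Among 6 genes of anaphase and mitotic exit, 1 (16.7%, against 4.72% of all genes) was at least 2-fold lower, and the median log2 ratio was -0.70. This was *Cdc20*, an activator of the anaphase promoting complex (321 and 154 CPM). *Ube2c*, a conjugating enzyme of that complex, had 852 and 533 CPM. The lists overlap with the G2/M list, of which 43 genes reached 100 CPM. Of these, 18 (41.9%, against 4.72% of all genes) were at least 2-fold lower, 0 were higher and the median was -0.92. The rule selects on *Mki67* and *Top2a* here too. Among members with at least 10 UMIs of the proliferation genes, 5 of 43 G2/M genes were 2-fold lower (median -0.62). In the lists of mitotic cyclins and kinases and of anaphase and exit, 0 of 6 genes each were 2-fold lower at that limit.

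Few replication genes passed 2-fold. All 8 licensing genes measured at 100 CPM had a ratio above 1, against 1004 of all 1991 genes, and the median log2 ratio was 0.53. Only *Mcm4* (12.5% of the list, against 4.47% of all genes) passed 2-fold, with 74.0 and 152 CPM, a ratio of 2.05 (1.43 to 3.02). *Mcm4* was under 100 CPM in room air and passed the filter through hyperoxia. Without cells with stromal UMIs, and as a mean of single cells, 0 of 8 passed 2-fold, and 7 and 5 of 8 ratios were above 1. *Mcm3* had 148 CPM in room air against 247 CPM in hyperoxia, a ratio of 1.67 (1.29 to 2.19). *Mcm6* had 106 and 128 CPM, and its interval from 0.882 to 1.69 includes no difference. *Pcna*, the sliding clamp of the polymerases, had 251 and 331 CPM, a ratio of 1.32 (1.08 to 1.62), and 0 of 4 fork genes passed 2-fold in either direction. *Tyms*, which makes thymidylate, had 148 and 212 CPM, and 0 of 4 genes of nucleotide supply passed 2-fold (median 0.14, with 2 genes below 0). The plot of list ratios shows the medians of the replication lists to the right of 0 and those of the mitotic lists to the left of it in cycling ECs.

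**Figure D3:**
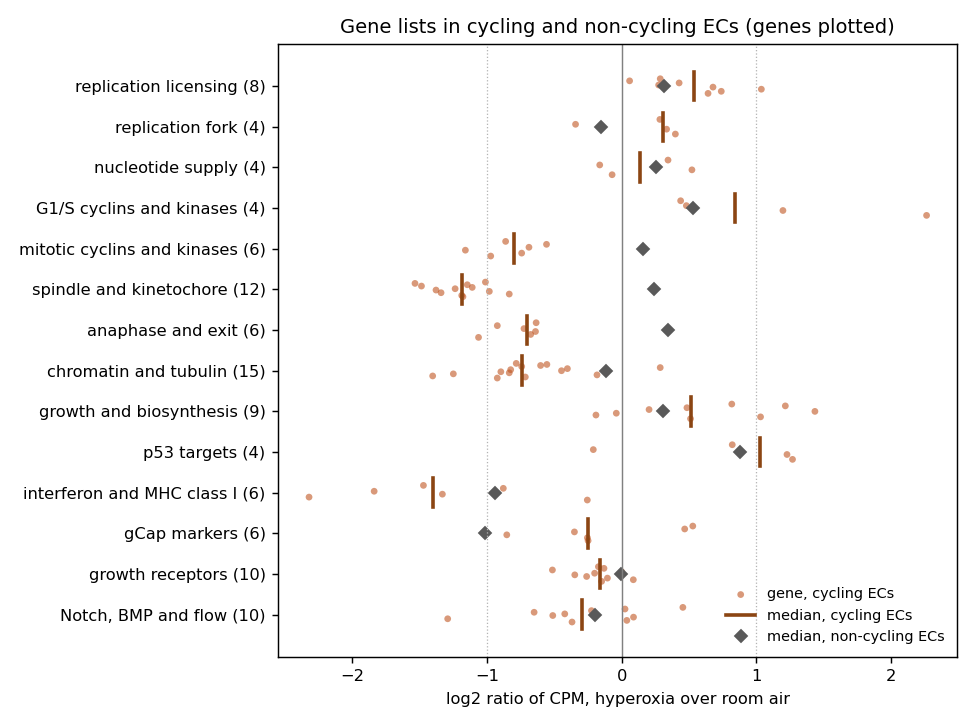
Log2 ratio of CPM, hyperoxia over room air, for genes of 14 lists with a mean of at least 100 CPM in cycling ECs (number of genes after each name). Points are genes and bars are list medians in cycling ECs, and diamonds are list medians in non-cycling ECs; the spindle and kinetochore median lies at -1.18, the licensing median at 0.53 and the interferon and MHC class I median at -1.40.

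Of 15 chromatin and tubulin genes of dividing cells, 2 (13.3%, against 4.72% of all genes) were at least 2-fold lower, *Hmgn2* and *H2afx*, and 0 were higher. A ratio below 1 was found for 14 of the 15 (median log2 ratio -0.74), and at the limit of 10 UMIs 1 gene was 2-fold lower. *Hmgb2*, a chromatin protein abundant in dividing cells, had 3808 CPM in room air against 2007 CPM in hyperoxia. *Hmgn2*, a nucleosome binding protein, had 1339.9 and 506 CPM, and *H2afx*, the histone that is phosphorylated at DNA breaks, 442 and 186 CPM. *Hmgn2* was also lower in non-cycling ECs (237 and 106 CPM), whereas *H2afx* was low in both of these (16.2 and 24.4 CPM). *H1f0*, a linker histone gene outside this list that was chosen after its values were seen, had 856 and 299 CPM in members and 175 and 190 CPM in non-cycling ECs.

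Part of this could be read within members of like cycle position. Members were grouped by their S share, which uses the same S and G2/M genes and is therefore not independent of the spindle and licensing lists. Among members with an S share under 20%, 15 in room air and 29 in hyperoxia, the spindle list summed to 9048 CPM (8645 to 9464) in room air against 5898 CPM (5679 to 6124) in hyperoxia. Licensing genes in the same members were close, at 471 CPM (383 to 574) and 408 CPM (352 to 471). Among members with an S share of 40% to under 60%, 8 and 28 cells, licensing genes summed to 2055 CPM (1717 to 2441) and 1936 CPM (1811 to 2067). The spindle list there was 1344 CPM (1073 to 1662) and 721 CPM (646 to 803). Few cells stand behind the room air values in each range, with 2 members at 60% or more.

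**Figure D4:**
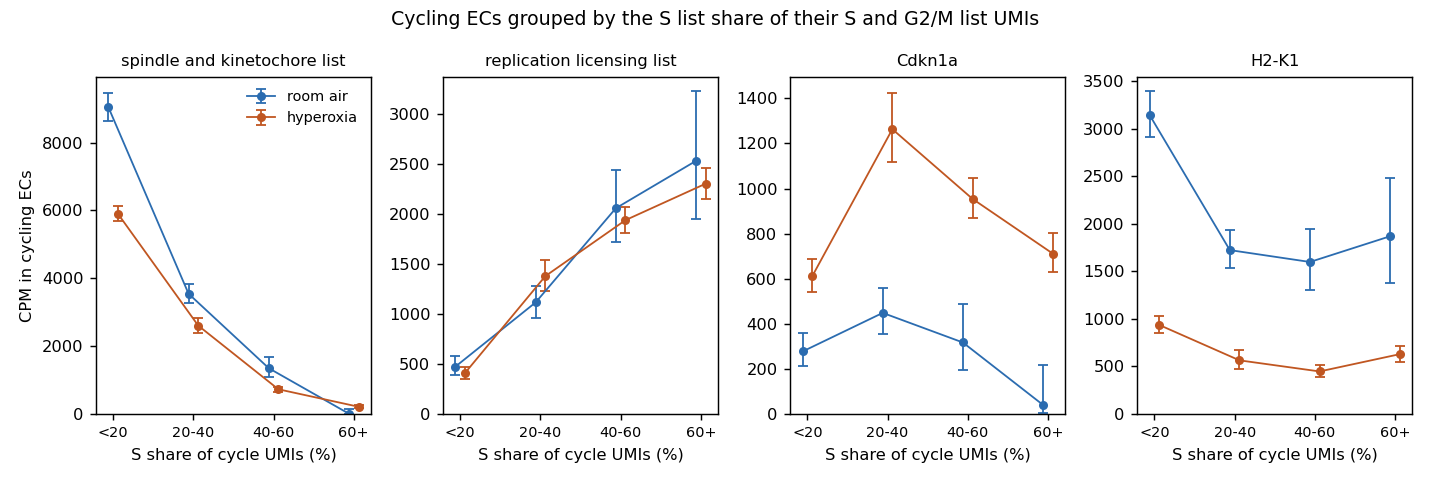
Level in cycling ECs (CPM, vertical axis) of the spindle and kinetochore list, the replication licensing list, *Cdkn1a* and *H2-K1*, in members grouped by the S list share of their S and G2/M UMIs (horizontal axis), for room air and hyperoxia. Points are summed levels and bars exact 95% Poisson intervals; *Cdkn1a* lies higher and *H2-K1* lower in hyperoxia in every range, with 2 room air members behind the last one.

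Cyclin D1 and p21 were both higher in the cycling ECs of hyperoxia. *Ccnd1* (chr7:144929931-144939925, minus strand), the G1 cyclin that carries growth signals into the cycle, had 182 CPM in room air against 872 CPM in hyperoxia, a ratio of 4.80 (3.86 to 6.04). *Ccnd2*, a related cyclin, had 144 and 329 CPM. Of 4 G1/S genes measured at 100 CPM, these 2 (50%, against 4.47% of all genes) were at least 2-fold higher and 0 lower (median log2 ratio 0.84). *Cdkn1a* (chr17:29090976-29100727, plus strand) had 332 CPM (282 to 388) and 834 CPM (788 to 881), a ratio of 2.51 (2.13 to 2.99). In non-cycling ECs *Ccnd1* had 352 and 967 CPM and *Cdkn1a* 153 and 1276 CPM, a ratio of 8.35 for *Cdkn1a*.

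The order of p21 between dividing and resting ECs was thus opposite in the 2 libraries. In room air *Cdkn1a* was 2.17 times as high in cycling as in non-cycling ECs, and in hyperoxia 0.653 times as high. Along the number of proliferation gene UMIs, *Cdkn1a* in room air had 153 CPM at 0 UMIs, 151 at 1 or 2, 287 at 3 to 9 and 337 at 10 or more. In hyperoxia it had 1276, 1024, 766 and 869 CPM. The cycling ECs of hyperoxia therefore stood below their non-cycling neighbours and above every group of room air. *Ccnd1* had its lowest level in each library at 10 or more UMIs, with 166 CPM in room air against 779 CPM in hyperoxia.

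Other inhibitors went the other way. *Cdkn2c*, which encodes the kinase inhibitor p18, had 262 CPM in room air against 106 CPM in hyperoxia in cycling ECs, a ratio of 0.404 (0.317 to 0.515), and *Cdkn1b*, which encodes p27, had 150 and 81.2 CPM, a ratio of 0.541 (0.400 to 0.735). Of 4 inhibitors at 100 CPM 1 (25%, against 4.47% of all genes) was at least 2-fold higher and 1 (25%, against 4.72%) lower. Targets of p53 without *Cdkn1a* summed to 883 and 1571 CPM in members and to 1398 and 2256 CPM in non-cycling ECs. *Bax*, which opens mitochondria in cell death, had 142 and 331 CPM, and *Phlda3*, an inhibitor of Akt, 71.9 and 173 CPM. *Gdf15*, a secreted stress factor that did not reach a mean of 100 CPM, had 2 UMIs in room air and 144 in hyperoxia, a ratio of 22.7 (6.16 to 189). Of 4 p53 targets at 100 CPM, 2 (50%, against 4.47% of all genes) were at least 2-fold higher and 0 lower (median log2 ratio 1.02). Without marked doublets, and as a mean of single cells, 1 of 4 was 2-fold higher (medians 0.70 and 0.77). Without cells with stromal UMIs it was 1 of 3 (median 0.49). *Phlda3* was under 100 CPM in room air and passed the filter through hyperoxia.

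**Figure D5:**
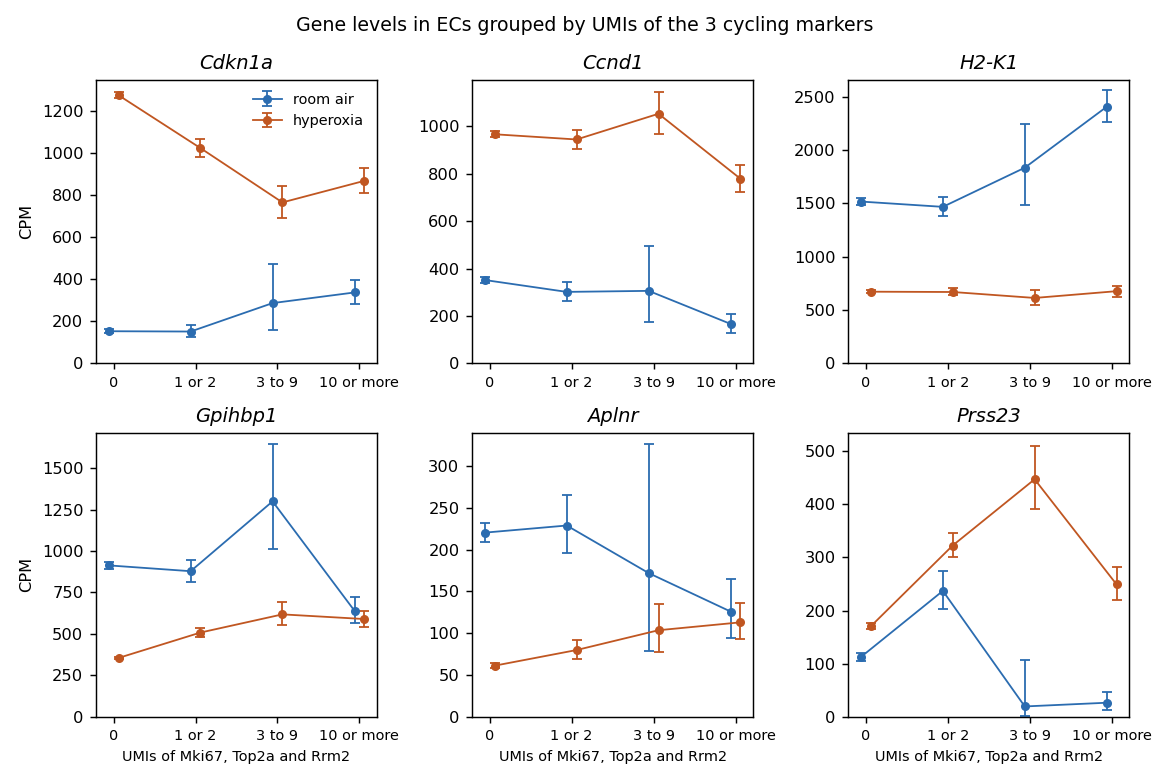
Level (CPM, vertical axis) of 6 genes in ECs grouped by their UMIs of *Mki67*, *Top2a* and *Rrm2* together (horizontal axis), where cells with 3 or more are the cycling ECs, for room air and hyperoxia. Points are summed levels and bars exact 95% Poisson intervals; *Cdkn1a* rises from 153 to 337 CPM in room air and lies between 766 and 1276 CPM in hyperoxia.

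Antigen presentation and interferon genes were lower in the cycling ECs of hyperoxia. Of 6 genes at 100 CPM, 4 (66.7%, against 4.72% of all genes) were at least 2-fold lower, 0 were higher and the median log2 ratio was -1.40. Of these 4, *Tap1* and *Iigp1* were under 100 CPM in hyperoxia and passed the filter through room air. At a mean of at least 200 CPM, 2 of 4 genes were 2-fold lower. *H2-K1* (chr17:33996017-34000347, minus strand), a classical MHC class I heavy chain, had 2344 CPM in room air against 655 CPM in hyperoxia, a ratio of 0.280 (0.256 to 0.305). *H2-D1*, the other classical heavy chain, had 2204 and 876 CPM, *B2m*, their light chain, 2310.0 and 1256 CPM, and *Tap1*, a subunit of the peptide transporter, 175 and 63.2 CPM. *Iigp1*, an interferon-induced GTPase, had 180 and 35.9 CPM. *Ifitm3*, an interferon-induced membrane protein, had 1255 and 1051 CPM and did not reach 2-fold.

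In non-cycling ECs the same genes were lower in hyperoxia by less, with 1518 and 672 CPM of *H2-K1* and a list median of -0.94. *H2-K1* in room air rose with proliferation gene UMIs, from 1518 CPM at 0 to 2407 CPM at 10 or more, while in hyperoxia it stayed between 614 and 677 CPM. The class I genes *H2-K1*, *H2-D1*, *H2-Q6* and *H2-Q7* are near-identical over parts of their length, so that reads may be split between them. *H2-Q6* had 437 and 81.2 CPM and *H2-Q7* 744 and 170 CPM in the members.

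The gCap markers were counted in both kinds of EC. Of the 6 markers, 0 were at least 2-fold higher or lower in cycling ECs (median log2 ratio -0.25). In non-cycling ECs 3 were lower (50%, against 2.31% of all genes there, median -1.01). *Gpihbp1*, which carries lipoprotein lipase across the capillary wall, had 712 and 599 CPM in cycling ECs, a ratio of 0.841 (0.741 to 0.956), and 913 and 354 CPM in non-cycling ECs. *Aplnr*, the apelin receptor gene, had 131 and 110 CPM in members, with an interval of the ratio from 0.622 to 1.14, and 221 and 61.0 CPM in non-cycling ECs. *Kit*, the receptor of stem cell factor, had 279 and 154 CPM in members and 334 and 96.0 CPM in non-cycling ECs. The non-cycling ECs of hyperoxia held more aCap-marker cells, as given above, so the levels were also read in gCap-marker cells, a class that these 3 genes help to define. In gCap-marker cells without a proliferation UMI, *Gpihbp1* had 1204 and 590 CPM, in those with 3 to 9 UMIs 1393 (1081 to 1765) and 686 (612 to 767) CPM, and in those with 10 or more UMIs 678 and 700 CPM. The 3 to 9 range held 8 such cells in room air and 30 in hyperoxia, and its difference was close to that of the cells without a proliferation UMI. Over all members, *Gpihbp1* had 543 and 337 CPM at an S share under 20%, 643 and 627 CPM at 20% to under 40%, 1328 and 576 CPM at 40% to under 60%, and 1051 and 941 CPM at 60% or more. Whether members of the libraries differed in *Gpihbp1* therefore varied with the range of cells compared.

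Genes of aCap cells were low in the members of both libraries. *Car4*, a carbonic anhydrase, had 97.2 and 95.1 CPM in cycling and 337 and 581 CPM in non-cycling ECs, and *Ednrb*, an endothelin receptor, 67.6 and 60.5 CPM against 270 and 269 CPM. *Apln*, the apelin ligand, had 80.3 CPM in room air against 156 CPM in hyperoxia in members, a ratio of 1.94 (1.37 to 2.81). Among receptors of growth factors, 0 of 10 genes at 100 CPM passed 2-fold in either direction (median log2 ratio -0.16). *Kdr*, the main VEGF receptor, had 541 and 488 CPM in members and 877 and 1187 CPM in non-cycling ECs. *Fgfr1*, the receptor on which the study centres, was counted with 5 UMIs in the members of room air and 64 in those of hyperoxia, or 10.6 and 42.6 CPM, a ratio of 4.03 (1.64 to 12.8). In non-cycling ECs it had 30.7 and 56.7 CPM. A single cell held 60% of the 5 UMIs in room air. Among *Ptprc*-positive, *Epcam*-positive and remaining cells, *Fgfr1* reached up to 139 and 193 CPM. The stromal list in members was 2.48 times (2.24 to 2.75) as high in hyperoxia. Marked doublets were 5.71% and 33.7% of members, and 3.38% and 10.6% of all barcodes, a share that the ranking sets by library size. The part of these in the *Fgfr1* ratio was not tested. *Fgfr3* had 27.5 and 94.5 CPM in members, and *Fgfr2* 46.5 and 31.9 CPM with an interval of the ratio from 0.407 to 1.19.

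Of 10 genes of Notch, BMP and flow signalling at 100 CPM, 1 (10%, against 4.72% of all genes) was at least 2-fold lower and 0 higher in members (median log2 ratio -0.30). This was *Hes1*, a Notch target, with 577 and 236 CPM in members and 641 and 297 CPM in non-cycling ECs. *Hey1*, another Notch target that belongs to the artery list, had 144 and 59.9 CPM in members and 169 and 69.3 CPM in non-cycling ECs. The flow factors *Klf2* (708 and 720 CPM, ratio 1.02, 0.899 to 1.15) and *Klf4* (478 and 654 CPM) were not lower. *Egfl7*, a secreted protein of the vessel wall, had 1505 and 772 CPM in members, a ratio of 0.513 (0.467 to 0.564), and 1119 and 1137 CPM in non-cycling ECs.

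Of 3 vein markers at 100 CPM, 2 (66.7%, against 4.47% of all genes) were at least 2-fold higher in the members of hyperoxia and 0 lower. These 2, *Vwf* and *Prss23*, reached a mean of 100 CPM through hyperoxia only, so that the count follows in part from the filter. *Nr2f2*, a transcription factor of veins, had 101 and 145 CPM and did not reach 2-fold. *Vwf*, which encodes von Willebrand factor, had 8 UMIs in room air and 442 in hyperoxia, or 16.9 and 294 CPM, a ratio of 17.4 (8.75 to 40.5), while non-cycling ECs had 312 and 319 CPM. *Prss23*, a secreted protease, had 25.4 and 317 CPM in members and 112 and 170 CPM in non-cycling ECs. *Slc6a2*, a noradrenaline transporter, had 0 UMIs in the members of room air and 188 in hyperoxia, at least 19.7-fold higher with the 0 set to 3 UMIs over the group. The 8 vein-marker members of hyperoxia are among these cells, and *Prss23* in gCap-marker members was also higher in hyperoxia, with 248 CPM (215 to 286) against 27.8 CPM (13.9 to 49.8) at 10 or more UMIs. *Tinagl1*, a matrix protein gene, had 21.1 and 285 CPM in members, a ratio of 13.5 (7.26 to 28.3), and 29.0 and 178 CPM in non-cycling ECs. *Fbln2*, a gene of the elastic matrix, had 101 and 325 CPM, and *Fam101b*, an actin regulator, 65.5 and 329 CPM.

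Of 9 genes of ribosome making and growth at 100 CPM, 3 (33.3%, against 4.47% of all genes) were at least 2-fold higher in the members of hyperoxia and 0 lower (median log2 ratio 0.51). The ratio was below 1 for 2 of the 9, and as a mean of single cells 1 gene was 2-fold higher. *Npm1*, a nucleolar chaperone, had 478 and 975 CPM, a ratio of 2.04 (1.77 to 2.36), and *Odc1*, the first enzyme of polyamine synthesis, 90.9 and 246 CPM. *Nme1*, a nucleoside diphosphate kinase, had 97.2 and 226 CPM. *Odc1* and *Nme1* were under 100 CPM in room air and passed the filter through hyperoxia. In non-cycling ECs *Npm1* had 445 and 507 CPM.

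The largest ratios included genes carried by single cells. *Prss34* and *Mcpt8*, proteases of basophils, came from 1 member of hyperoxia that held 725 of their UMIs, or 3% of its 24177 UMIs. A single member of room air held 4583 of the 4587 UMIs of the red cell list, 15.2% of its 30144 UMIs. The 4 haemoglobin genes at 100 CPM were all at least 2-fold lower in hyperoxia (against 4.72% of all genes). *Fabp4*, a fatty acid binding protein, had 0 UMIs in the members of room air and 925 in hyperoxia, at least 97.1-fold higher, with 53% of the UMIs in 1 cell. The 4 stromal genes at 100 CPM were all at least 2-fold higher in hyperoxia (against 4.47% of all genes), where 1 member held 1367 of the 3325 UMIs of the stromal list. *Col1a1*, a collagen gene of fibroblasts, had 165 and 388 CPM. Without the 2 members rich in red cell or basophil transcripts, 79 genes were at least 2-fold higher and 84 lower. The 8 smallest ratios were those of *H2-Q6*, *Iigp1*, *H2-Q7*, *Gbp7*, *H2-K1*, *H2-T22*, the non-coding RNA *Lockd* and the linker histone gene *H1fx*, from 0.186 to 0.290.

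Against non-cycling ECs the members were described only, since the rule used this contrast. In room air 221 (11.1%) of the genes were at least 2-fold higher and 30 (1.51%) lower, and in hyperoxia 190 (9.54%) and 28 (1.41%). Genes were ranked by the smaller of their ratios in the 2 libraries. Beside the 3 genes of the rule, the highest were *Bub1*, *Pbk*, *Hmmr*, *Nuf2*, *Fam64a*, *Neil3*, *2810417H13Rik*, *Hist1h1b*, *Nusap1*, *Esco2*, *Cenpf* and *Birc5*. Of these 12, 11 had fewer CPM in hyperoxia by their interval, and *2810417H13Rik*, which encodes a PCNA-associated factor, had 511 and 509 CPM. The lowest by the larger of the 2 ratios, among genes with at least 100 CPM in non-cycling ECs, were *Ednrb*, *Slfn5*, *Cxcl12*, *Acbd5*, *Mgll*, *Edil3*, *Tmod2* and *Hilpda*. *Cxcl12*, a chemokine gene, had 273 and 121 CPM in members against 833 and 412 CPM in non-cycling ECs, with 59.7% of the UMIs of the room air members in 1 cell.

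The sex transcripts of the pooled mice did not fall evenly. *Xist* was counted in 2 of 35 members (5.71%, 0.7 to 19.2) and 15.5% of the non-cycling ECs in room air, and in 32 of 95 members (33.7%, 24.3 to 44.1) and 24.8% of the non-cycling ECs in hyperoxia. A Y-linked UMI was found in 60% and 66.3% of the members. The libraries therefore cannot be taken to hold the same mix of male and female cells among the members, and the cycling share among ECs with a Y-linked and no *Xist* UMI was 3.74% in room air against 3.82% in hyperoxia. In these cells the S share was 18.5% and 34.3%, and 11 of 12 spindle genes were at least 2-fold lower in hyperoxia.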

How the data were processed

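Whole lungs of pups kept in room air or hyperoxia were profiled by droplet scRNA-seq (10x Genomics, 3′), with 1 library of 8 pooled mice per group. The authors deposited filtered matrices of raw UMI counts per gene and barcode, aligned to mm10. The sources differ on the software: the submitters' processing notes name Cell Ranger 2.1.1, their protocol a later version, and the matrix header gives software_version 3.1.0. They also differ on the kit chemistry. Which software and kit made each matrix is not settled by the files, and their effect on the counts was not tested.

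Barcodes with under 500 genes or over 20% mitochondrial UMIs were removed. UMIs were summed over the cells of a group and expressed as CPM of all their UMIs, and ratios were taken over genes with a mean of at least 100 CPM in cycling ECs. A gene was counted as higher or lower at 2-fold, and a count of 0 was set to 3 UMIs over the group. With 1 library per group no p-value was computed. The library totals were 39593888 and 111934936 UMIs. Doublets were not removed; as an alternative, barcodes whose nearest neighbours held the most simulated doublets were left out, at 0.8% per 1000 barcodes.

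The members and gene lists were chosen with earlier results of these data known. Named genes were the genes of the rule, members of the lists, 8 genes that the study names (*Car4*, *Apln*, *Ednrb*, *Kit*, *Aplnr*, *Gpihbp1*, *Fgfr1* and *Fgfr2*), and the genes with the 8 largest and 8 smallest ratios between libraries, the 6 largest and 6 smallest differences of log2 ratios between cycling and non-cycling ECs, and the 15 largest and 8 smallest ratios of cycling over non-cycling ECs. Genes ranked between libraries had to reach, where higher, at least the CPM of the *Ptprc*-positive, *Epcam*-positive and remaining cells, and mitochondrial, ribosomal protein, haemoglobin and sex-linked genes were not ranked. *H2-Q6*, *H2-Q7* and *Gbp7* came from this ranking, and *Egfl7* from the pan-endothelial list. After the values were seen, the differences were ranked again among genes that also had a mean of at least 100 CPM in non-cycling ECs. The 6 largest and 6 smallest of these were added, *H1f0* among them. Python 3.11.15 with numpy 2.4.6, scipy 1.17.1, pandas 2.3.3 and scikit-learn 1.9.0 was used, with edgeR 4.0.16 in R 4.3.3 for TMM factors only. The scripts were tested on simulated data.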

Additional observations from a re-analysis of the deposited data

Results flagged for a closer look

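Among 217 genes compared, 17 had opposite signs in 2 log2 ratios set side by side. Both ratios had to be at least 0.5 in size, with intervals that left out no difference. For 11 of them the pair was cycling over non-cycling ECs in room air and in hyperoxia. For the other 6 it was hyperoxia over room air in cycling and in non-cycling ECs. The 217 include genes chosen for the largest and smallest differences between the log2 ratios of cycling and non-cycling ECs. Such a choice favours opposite signs, so 17 of 217 is not a share of all genes. None of these differences was tested, since each group was 1 library.

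*Cdkn1a* was higher in cycling than in non-cycling ECs in room air (log2 ratio 1.12) and lower in hyperoxia (-0.61). The reverse order held for *Prss23* (-2.15 and 0.90), *Aplnr* (-0.75 and 0.85), *Fbln2* (-0.97 and 0.62), *Fam101b* (-0.66 and 0.74) and *Fabp4* (-3.43 and 2.02). The value of *Fabp4* in room air rests on 0 UMIs set to 3, and 53% of its UMIs in the members of hyperoxia came from 1 cell. *Xist* had -1.01 and 0.71. The haemoglobin genes had opposite signs too, with 2.73 and -6.38 for *Hbb-bs*, 4.02 and -6.03 for *Hbb-bt*, 2.62 and -7.35 for *Hba-a1*, and 2.82 and -6.08 for *Hba-a2*, where 1 member of room air held 4583 of 4587 red cell list UMIs.

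Between the libraries, several mitotic genes had a negative log2 ratio of hyperoxia over room air in cycling ECs and a positive one in non-cycling ECs. Those that met both limits were *Cdca8* (-0.92 and 3.58), *Anln* (-0.60 and 1.80), *Tpx2* (-0.84 and 1.22), *Tubb4b* (-0.57 and 0.58), *Cks1b* (-0.56 and 0.51) and *H2afx* (-1.25 and 0.59). In non-cycling ECs *Cdca8* had 0.141 and 1.68 CPM and *Tpx2* 1.55 and 3.60 CPM, so their ratios there rest on few UMIs.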

How the results depend on the processing

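The cycling share in room air stayed within its interval under every alternative (2.73% to 4.15%). In hyperoxia it was 4.66% with a limit of 2 UMIs, 2.69% without marked doublets and 2.63% with *Cdk1*, *Ccna2* and *Birc5*. Thinned to 4000 UMIs before the whole rule, the shares were 3.60% and 2.89%. At a mean of at least 50 CPM, 154 genes were higher and 169 lower in cycling ECs, and 65 and 79 in non-cycling ECs. At 200 CPM the counts were 38 and 40, and 15 and 20. TMM factors gave 89 and 86 in cycling ECs but 38 and 38 in non-cycling ECs, where scaling to all UMIs gave 31 and 46.

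The S share in room air was 27.4% as a mean of single cells, 16.4% with a limit of 5 UMIs, 16.1% with the other 3 marker genes, 16.2% without cells with stromal UMIs, 18.5% in cells with a Y-linked and no *Xist* UMI and 15.8% with a limit of 10 UMIs. In hyperoxia it was 38.7% as a mean, 29.1% with 5 UMIs, 27.6% with the other genes, 39.8% without doublets, 34.3% in the Y-linked cells and 26.7% with 10 UMIs. It was higher in hyperoxia under each of these alternatives. The median log2 ratio of the spindle list ranged from -1.73 without doublets to -0.81 with 10 UMIs.

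Of 290 named genes 92 were past 2-fold, and over 12 settings 822 of 824 comparisons kept their sign and 757 stayed past 2-fold. At the limits of 50 and 200 CPM only the filter changed, so the 91 and 38 comparisons there could not differ. Part of the named genes were chosen for large ratios in these same data. The exceptions in sign were *Cxcl12* (log2 ratio 0.026 as a mean of single cells) and *Mfap4* (-0.67 in the Y-linked cells). The cause was not tested. The limits by Y-linked UMIs, by 10 UMIs, without vein-marker cells and without 2 members rich in red cell or basophil transcripts were chosen after seeing the data. No paired analysis was possible because each group was 1 library, and for the same reason no replicate could be left out. Members of room air numbered 35, which limits every value of that group.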

Other observations

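Other gene groups of the cycling ECs ranged from no gene past 2-fold to a few higher ones. Of 5 antioxidant genes at 100 CPM, 0 were at least 2-fold higher or lower (median log2 ratio 0.05), with 588 and 610.1 CPM in room air and hyperoxia for *Prdx1*, a peroxiredoxin. Of 4 glycolysis genes, 1 (25%, against 4.47% of all genes) was at least 2-fold higher and 0 were lower (median 0.74). This was *Ldha*, which makes lactate (148 and 298 CPM). The glycolysis list of 14 summed to 1.42 times (1.30 to 1.55) the level of room air. Of 2 DNA repair genes at 100 CPM, 0 passed 2-fold, with 135 and 157 CPM for *Clspn*, a mediator of the replication checkpoint. Of 12 genes known to respond to tissue dissociation, 2 (16.7%, against 4.47% of all genes) were higher, the heat shock genes *Hspa1a* (116 and 305 CPM) and *Hspa1b* (71.9 and 203 CPM), and 0 were lower (median 0.52). *Hspa1b* was under 100 CPM in room air and passed the filter through hyperoxia. In non-cycling ECs *Hspa1a* had 294 and 346 CPM.

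Among other cells, the same 3 proliferation genes marked 6.50% (5.27 to 7.92) of *Ptprc*-positive cells in room air against 6.41% (5.68 to 7.20) in hyperoxia. They marked 2.35% (1.40 to 3.69) and 0.964% (0.612 to 1.44) of stromal-marker cells, and 0.707% and 0.597% once cells were thinned to 4000 UMIs. With at least 1 UMI at that depth they marked 8.20% and 3.99% of these cells, a difference of -4.21 percentage points (-6.61 to -2.09). Of *Epcam*-positive cells, they marked 3.77% (1.64 to 7.30) and 2.65% (1.72 to 3.89).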
